A study of Mus musculus with 36 samples.

Results

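Liver gene expression of wild type mice of the Cd line was compared with that of CBA mice. Both were control groups in a study of 5 mouse lines with mutations that cause neural tube defects, and each mouse was measured on 1 Affymetrix array. The Cd wild type mice carried the strain label Lrp6Cd and the genotype label wild-type, and the CBA mice the strain label CBA/CaJ and the genotype label wild-type. All were females of 6 to 8 weeks, fasted for 4 to 5 hours, and a piece of liver was taken from each. By their labels neither group carried a mutant Lrp6 allele, so the comparison is between stocks. The genetic background of the Cd line and the litters of the mice were not given in the sources used here.

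The members were chosen from the labels: the 4 Cd wild type arrays and replicates 1 to 3 of the CBA group, 7 of the 36 arrays of the study. CBA replicate 4 was left out because its GAPDH 3'/5' control ratio, a measure of RNA degradation, was 52.5, against 0.733 to 0.844 on the 7 arrays used. The other groups give the level of a gene elsewhere in the study, at 4 arrays each. They were Cd heterozygotes (strain Lrp6Cd), ct mice (a random bred closed colony taken as ct/ct), wild type C57BL/6J (B6) and wild type mice of the Vangl2Lp line (Lp). The remaining groups were heterozygotes of the Pax3Sp2H, Apobtm1Unc and Vangl2Lp lines. On ct replicate 3, which was kept, the GAPDH ratio was 1.72. It was 0.729 to 0.956 on the 34 arrays other than ct replicate 3 and CBA replicate 4. Of the 13190 genes tested, 568 (4.31%) were called at a limma adjusted p below 0.05, 291 (2.21%) higher and 277 (2.1%) lower in Cd wild type liver.

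The liver clears drugs, steroids and bile acids through families of cytochrome P450 enzymes, transferases and transporters, whose genes often lie in clusters of close copies. Several of these genes are read more in the liver of one sex than of the other, under control of the pulses of growth hormone. Hepatocytes make up most of the tissue, with Kupffer cells (its resident macrophages) and sinusoidal endothelial cells beside them. A probe set on the array reads a short stretch of a transcript, so a base difference under it between stocks and a difference in the amount of RNA cannot be told apart from 1 probe set alone.

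Correlations between arrays were at least 0.962 within Cd wild type and 0.952 within CBA, and 0.944 to 0.954 between the groups. The 3'/5' ratio of pyruvate carboxylase was 4.25 to 8.19 on the Cd wild type and 8.36 to 10.7 on the CBA arrays, without overlap, and its part in the differences was not tested. The number of arrays, 4 and 3, limits the precision, and the median SE of a log2 difference was 0.24. Cd wild type replicate 1 stood apart from the other arrays in an X-linked transcript. Xist, the RNA that coats the inactive X chromosome of females, had signals of 25.4, 19.3 and 204 in its 3 probe sets there. The lowest values on the other 34 arrays were 1014, 43.5 and 1088. The Y-linked genes measured (Eif2s3y, Kdm5d and Uty) reached at most 50.6 on it, within the range of the other 34 arrays. Eif2s3x, an X-linked gene that escapes inactivation, had 3983 in a probe set where the others ran from 4425 to 7606. Its other probe sets, at 4221 and 935, lay within the ranges of the others (4123 to 7267 and 369 to 1739). The X-linked Kdm6a had 239 in a probe set where the others ran from 291 to 1433. The gene was called lower by that probe set (-1.50), and another tested probe set gave -0.02. In the called probe set Cd wild type replicates 2 to 4 had 301, 515 and 291, against 1287, 762 and 885 in CBA liver. Kdm5c had 10.3 in a dim probe set where the others ran from 11.3 to 206. Further probe sets of Kdm6a and Kdm5c, and those of Ddx3x, lay within the ranges of the others. Without this array 432 genes were called, 411 of them among the 568, and 5 male-biased genes fell. The part of this array's X-linked signals in the sex-biased results was not tested beyond that count.

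Cyp2c37, Cyp2c54 and Cyp2c50 were next to each other in the order of tested genes and were all lower in Cd wild type liver. They belong to the Cyp2c cluster, which encodes cytochromes P450 that hydroxylate drugs, steroids and arachidonic acid. In the order of tested genes Cyp2c54 lies between Cyp2c37 and Cyp2c50. The 5' flanks of Cyp2c37 and Cyp2c50 are shown because both genes were called in the same direction. The flanks are reference sequence and do not show the alleles of either stock. Both are the RefSeq sequence of GRCm38.p6 directly upstream of the annotated start on the plus strand, at chr19:39992174-39992423 and chr19:40089429-40089678. Capitals mark the bases that differ between the genes or have no partner in their alignment.
Cyp2c37: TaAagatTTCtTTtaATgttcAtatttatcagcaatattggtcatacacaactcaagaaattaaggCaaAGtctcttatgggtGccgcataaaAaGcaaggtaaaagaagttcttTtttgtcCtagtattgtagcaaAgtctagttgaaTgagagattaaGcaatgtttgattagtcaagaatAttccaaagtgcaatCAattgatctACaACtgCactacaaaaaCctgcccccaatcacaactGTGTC
Cyp2c50: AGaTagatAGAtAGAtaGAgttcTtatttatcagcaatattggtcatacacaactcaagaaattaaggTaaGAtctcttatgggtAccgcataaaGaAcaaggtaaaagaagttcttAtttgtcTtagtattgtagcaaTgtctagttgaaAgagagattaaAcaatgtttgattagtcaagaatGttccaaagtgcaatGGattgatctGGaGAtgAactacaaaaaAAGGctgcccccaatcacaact
In the alignment 215 of 245 paired bases (87.8%) were identical. Close copies such as these can share probes, so the signals of single Cyp2c genes are uncertain.

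On the 4 Cd wild type arrays Cyp2c37 had signals of 389, 429, 638 and 464, against 19789, 14022 and 14533 on the CBA arrays. The groups lay far apart, and the log2 difference was -5.01 ± 0.40 (SE, limma adjusted p = 5.31e-11). Signals of Cyp2c50 were 5482, 4644, 7069 and 5295 in Cd wild type and 22288, 19645 and 19294 in CBA liver, a difference of -1.87 ± 0.41 (limma adjusted p = 0.00366). Cyp2c54 varied more, with 906, 295, 1766 and 734 against 10133, 6549 and 5640. Its groups did not overlap, and its difference of -3.18 ± 0.77 (limma adjusted p = 0.0102) missed the threshold without Cd wild type replicate 2 (-2.74, limma adjusted p = 0.0541) and without CBA replicate 1 (-2.94, limma adjusted p = 0.0656). Cyp2c39, a further member of the cluster, ran the other way, with 14719 to 16808 in Cd wild type against 5959 to 7678 in CBA liver (1.19 ± 0.30, limma adjusted p = 0.0163). That call was lost without CBA replicate 1 (1.08, limma adjusted p = 0.0932).

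Of the 32 tested Cyp2 and Cyp3 genes, 1 rose and 6 fell, beside 2.21% and 2.1% of all genes tested. The median difference of the 32 was 0.04, and that of all genes was -0.01. The other genes that fell were Cyp2d9, Cyp2j6 (-0.79 ± 0.20, limma adjusted p = 0.013) and Cyp3a11, the main drug-metabolising Cyp3a of mouse liver (-0.53 ± 0.15, limma adjusted p = 0.0324). Cyp2e1, which oxidises ethanol, had 52788 ± 5614 (SD, n = 4) in Cd wild type and 53598 ± 2018 (SD, n = 3) in CBA liver, within the spread of the arrays. Cyp3a16 had a difference of 2.21 but an SE of 0.90 and did not pass (limma adjusted p = 0.196).

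**Figure D1:**
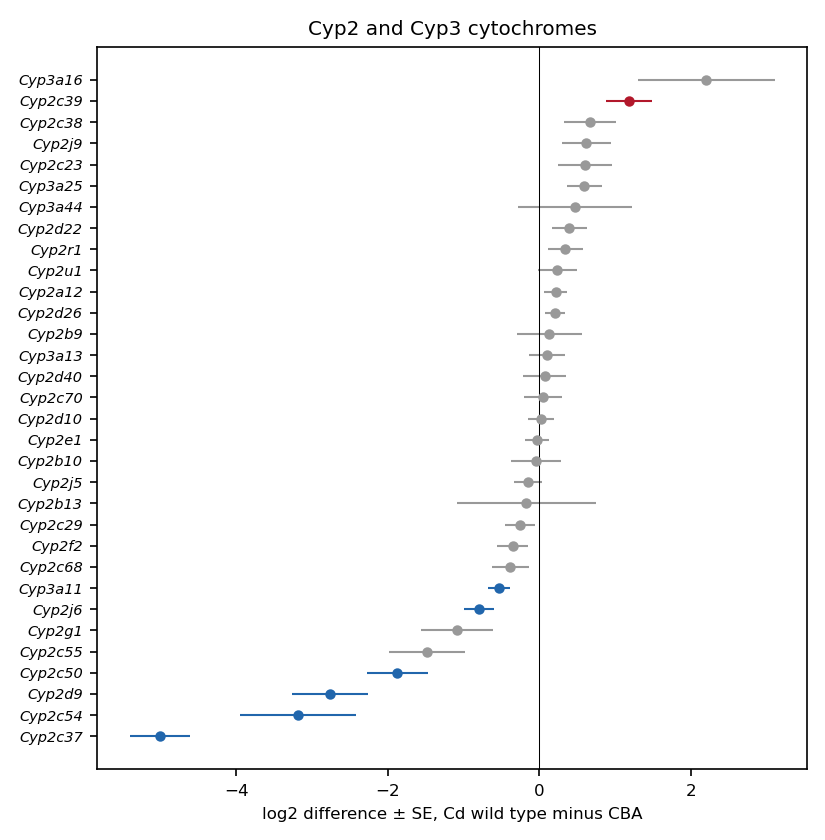
Log2 difference (Cd wild type minus CBA) ± SE from limma for the 32 tested Cyp2 and Cyp3 genes, with genes called higher in red, called lower in blue and not called in grey. Cyp2c37 lies lowest at -5.01, and the called genes that fell reach up to Cyp3a11 at -0.53.

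Male-biased liver genes fell where they were called. Of the 18 tested, 6 fell and 0 rose, beside 2.1% and 2.21% of all genes tested. A positive difference was seen in 3 (48.8% of all genes), and their median was -0.49. The list held Slco1a1, a sinusoidal carrier of organic anions and bile acids, with signals of 21.5, 77.9, 393 and 314 in Cd wild type and 8160, 8425 and 6026 in CBA liver. Every Cd wild type array was far below every CBA array, with a difference of -5.56 ± 0.80 (limma adjusted p = 1.24e-05). A second probe set of Slco1a1 gave -5.25.

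Hsd3b5, a steroid dehydrogenase of male liver, had signals of 20.3, 51.9, 86.3 and 123 in Cd wild type against 1940, 2253 and 833 in CBA liver (-4.21 ± 1.04, limma adjusted p = 0.0126). The Cd wild type values lay near the level of the filter, a signal of 61.6, while the CBA values were spread widely. Cyp2d9, a steroid 16-alpha hydroxylase, had 1672, 1441, 1382 and 1237 against 11772, 10111 and 7919 (-2.76 ± 0.50, limma adjusted p = 4.23e-04). Serpina12, which encodes the adipokine vaspin, had 481 to 1387 against 3454 to 9029 (-2.58 ± 0.58, limma adjusted p = 0.00523). In each of these genes the groups did not overlap.

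Susd4, a regulator of complement, fell by 1.63 on the log2 scale, with 50.4 to 79.8 against 200.1 to 305 and a limma adjusted p of 0.0108. Cyp7b1, an oxysterol hydroxylase of the alternative bile acid pathway, had 786 to 1287 against 1543 to 2769 (-1.0 ± 0.28, limma adjusted p = 0.0361). The count of 6 rested on the CBA arrays: it was 3 without CBA replicate 1 and 3 without CBA replicate 2. Hsd3b5 lost its call without CBA replicate 1 (-4.04, limma adjusted p = 0.0602) and without CBA replicate 2 (-3.93, limma adjusted p = 0.0729), Serpina12 without CBA replicate 2 (-2.13, limma adjusted p = 0.0733) and Susd4 without CBA replicate 1 (-1.47, limma adjusted p = 0.0773). Cyp7b1 lost it without CBA replicate 1 (-0.75, limma adjusted p = 0.246) or CBA replicate 2 (-1.08, limma adjusted p = 0.0719), and also without Cd wild type replicate 1 (-1.05, limma adjusted p = 0.0529), 2 (-0.91, limma adjusted p = 0.109) or 4 (-0.90, limma adjusted p = 0.112). Slco1a1 and Cyp2d9 kept theirs without any of the 7 arrays.

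Of 19 tested female-biased liver genes, 2 rose and 1 fell, beside 2.21% and 2.1% of all genes, with a median of 0.44 and 14 positive differences. Cyp17a1, the 17-alpha hydroxylase of steroid synthesis, had signals of 12735, 11981, 8077 and 10343 in Cd wild type and 953, 527 and 1006 in CBA liver. The groups were well separated (3.70 ± 0.46, limma adjusted p = 1.03e-06). Cyp4a14, an omega-hydroxylase of fatty acids, had 7844, 4899, 7806 and 3547 against 2164, 422 and 2608 (2.07 ± 0.62, limma adjusted p = 0.0482). This call was lost without Cd wild type replicate 1 (1.92, limma adjusted p = 0.127), 2 (2.14, limma adjusted p = 0.0749) or 3 (1.92, limma adjusted p = 0.125). It was also lost without CBA replicate 1 (2.41, limma adjusted p = 0.0541) or CBA replicate 2 (1.26, limma adjusted p = 0.419), the array with the lowest value.

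Sult3a1, a sulfotransferase, went the other way from Cyp17a1 and Cyp4a14, with 166, 63.8, 503 and 743 in Cd wild type and 4501, 10441 and 2509 in CBA liver (-4.11 ± 1.22, limma adjusted p = 0.0454). Its call was lost without any of 6 arrays, the exception being Cd wild type replicate 4. The adjusted p was 0.111 without Cd wild type replicate 1, 0.145 without replicate 2 and 0.0563 without replicate 3. It was 0.113, 0.221 and 0.0734 without CBA replicates 1, 2 and 3, all from limma. Sult3a1 has close copies, which makes its signal uncertain. Sult2a2 and Cyp3a16, also female-biased, had differences of 2.16 ± 0.78 and 2.21 ± 0.90 and did not pass (limma adjusted p = 0.127 and 0.196).

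**Figure D2:**
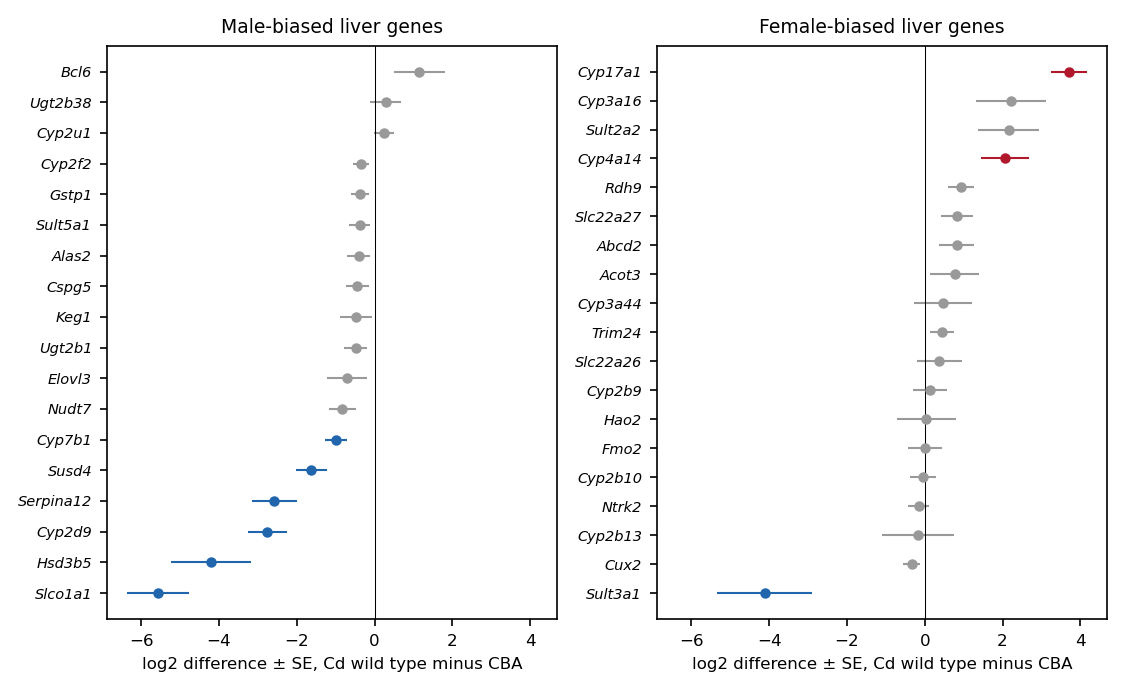
Log2 difference (Cd wild type minus CBA) ± SE from limma for the 18 tested male-biased (left) and 19 tested female-biased (right) liver genes, with genes called higher in red, called lower in blue and not called in grey. The called male-biased genes run from -5.56 to -1.0, and the called female-biased genes are Cyp17a1 and Cyp4a14 to the right and Sult3a1 to the left.

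Across all genes the differences ran both ways, and 281 of the 568 called genes differed over 2-fold, 65 over 4-fold and 21 over 8-fold. The median absolute log2 difference of called genes was 0.99. Values of the groups did not overlap in 2762 genes (20.9%), of which 1384 (10.5%) had Cd wild type above CBA and 1378 (10.4%) below. Of the called genes 562 (4.26% of those tested) were also without overlap. Before adjustment 2079 genes (15.8%) had a limma p below 0.05. Genes higher in Cd wild type made up 51.2% of the calls, and 67.9% (342 of 504) when each array was centred on its median.

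**Figure D3:**
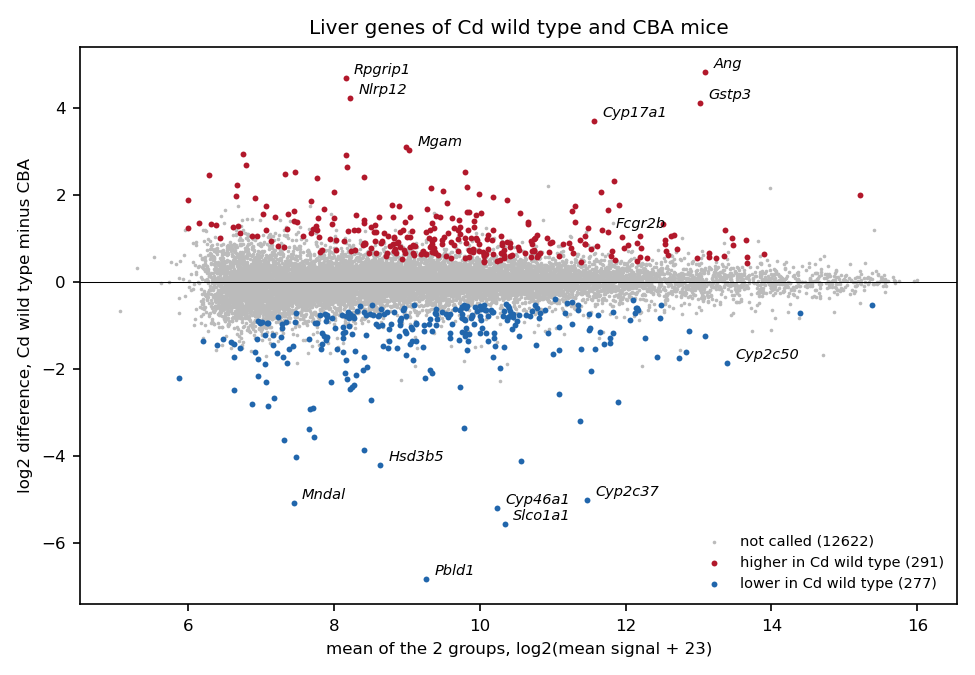
Log2 difference (Cd wild type minus CBA) against the mean of both groups on the log2(signal + 23) scale for 13190 genes, with 291 called higher in red, 277 called lower in blue and the genes not called in grey. Pbld1 is lowest at -6.82 and Ang highest at 4.82, and named points carry their symbol.

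The 15 largest decreases and the 15 largest increases were taken among called genes without overlap whose higher group had a mean signal of at least 200. Pbld1, a protein with a phenazine biosynthesis-like domain, led the decreases. Its signals were 11.5, 33.5, 33.7 and 66.1 in Cd wild type and 6895, 5404 and 6747 in CBA liver. In Cd wild type 3 of the 4 values lay below the signal of the filter, and the difference was -6.82 ± 0.28 (limma adjusted p = 1.09e-18). Pbld1 ran from 12 to 82.7 in Cd heterozygotes and from 3919 to 9263 over the B6, Lp wild type and ct mice.

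Cyp46a1, cholesterol 24-hydroxylase, is known mainly from neurons. It had 162, 193, 211 and 142 in Cd wild type and 8018, 6722 and 6988 in CBA liver (-5.19 ± 0.28, limma adjusted p = 2.92e-15). CBA had the highest level of all groups: ct mice had 1702 to 5776, and B6 and Lp wild type mice 163 to 328, like the Cd line. Abhd1, an alpha/beta hydrolase domain protein, was high in CBA and ct mice alike, with 211 to 312 in Cd wild type, 2359 to 3077 in CBA, 2723 to 3696 in ct and 214 to 309 in B6 and Lp wild type liver (-3.36 ± 0.19, limma adjusted p = 1.06e-14).

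Mndal, an interferon-inducible DNA sensor family gene, had 15.2, 3.52, 3.94 and 3.73 in Cd wild type against 1073, 1324 and 629 in CBA liver (-5.08 ± 0.36, limma adjusted p = 3.18e-12). The Cd wild type values were all near the bottom of the scale, and a second probe set gave -4.80. Mndal lies in a family of near-identical genes, so its signal may include theirs. It ran from 2.16 to 34.2 in Cd heterozygotes and from 682 to 2408 over B6, Lp wild type and ct mice.

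Gm4788, a complement factor H related gene, had 9.94 to 29.3 in Cd wild type against 589 to 872 in CBA liver (-4.01 ± 0.26, limma adjusted p = 2.87e-13). Asic5, an ion channel opened by bile acids, had 9.32 to 120 against 953 to 1616 (-3.86 ± 0.41, limma adjusted p = 3.85e-08). Corin, the protease that activates natriuretic peptides, had 7.93 to 39.0 against 391 to 808 (-3.64 ± 0.45, limma adjusted p = 1.00e-06). In these genes most values of the lower group lay below or near the level of the filter. B6 mice lay between the groups in Asic5, at 135 to 252, and in Gm4788, at 152 to 330.

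Ccdc122 and 4930581F22Rik, a gene without an assigned function, fell by 3.57 and 2.93 on the log2 scale (limma adjusted p = 6.62e-10 and 6.78e-10). Exosc1, a subunit of the RNA exosome, fell by 3.39 in its brightest probe set (26.4 to 64.5 against 488 to 705). Its other probe sets gave 1.35 and -0.06, so the direction for Exosc1 depended on the probe set. The rest of the 15 were Slco1a1, Cyp2c37, Cyp2c54, Hsd3b5 and Sult3a1.

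Ang, a secreted ribonuclease called angiogenin, had the largest increase. Its signals were 42391, 40342, 49512 and 52238 in Cd wild type and 1729, 1242 and 1914 in CBA liver (4.82 ± 0.17, limma adjusted p = 1.76e-20). Other probe sets of Ang gave 1.98 and 0.25, and the gene has close copies. The ct mice had 1906 to 3153, near CBA, and B6 and Lp wild type mice 43546 to 52701, near the Cd line. The levels of Ang thus fell into the same split of the stocks as those of Abhd1, in the opposite direction.

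Rpgrip1, a ciliary protein known from photoreceptors, had 1244, 1471, 1222 and 1647 in Cd wild type against 34.7, 11.7 and 58.7 in CBA liver (4.69 ± 0.24, limma adjusted p = 1.13e-15). Nlrp12, a NOD-like receptor of myeloid cells, had 1136, 818, 2045 and 1014 against 40, 83.2 and 17.1 (4.22 ± 0.41, limma adjusted p = 5.81e-09). For both genes the CBA values lay around or below the level of the filter, and ct mice were also far below the Cd line, at 21.5 to 82.6 for Rpgrip1 and 20.5 to 204 for Nlrp12. Myo7a, an unconventional myosin of sensory hair cells, followed the same order, with 307 to 357 in Cd wild type, 9.60 to 75.6 in CBA and 36.1 to 127 in ct liver (2.47 ± 0.29, limma adjusted p = 3.33e-07).

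Pdxdc1, a pyridoxal-dependent decarboxylase domain protein, had 1293 to 1615 in Cd wild type against 123 to 180 in CBA liver in its brightest probe set (3.09 ± 0.20, limma adjusted p = 2.82e-13). Its other probe sets gave -4.32, 1.33 and 1.14. The probe sets of Pdxdc1 therefore did not share a direction, and the gene had no single change.

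Gstp3, a glutathione transferase of the pi class, had 32682, 31408, 36473 and 34265 in Cd wild type against 1208, 2813 and 2089 in CBA liver (4.11 ± 0.33, limma adjusted p = 5.88e-11). It ran from 31400 to 36146 in Cd heterozygotes and from 871 to 3496 over B6, Lp wild type and ct mice, so the Cd line was the group that stood apart. Atoh7, a transcription factor of retinal ganglion cells, had the same order, with 204 to 560 in Cd wild type, 165 to 534 in Cd heterozygotes and 17.3 to 94.0 in CBA liver (2.52 ± 0.40, limma adjusted p = 7.58e-05). Gstp3 belongs to a family of near-identical genes.

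Mgam, a maltase-glucoamylase, and Aox3, a liver aldehyde oxidase, were low in CBA alone. Mgam had 1224 to 1558 in Cd wild type against 107 to 278 in CBA liver (3.04 ± 0.30, limma adjusted p = 6.55e-09), and 499 to 1603 over B6, Lp wild type and ct mice. Aox3 had 1475 to 2640 against 194 to 593 (2.54 ± 0.34, limma adjusted p = 3.37e-06), and 1938 to 6020 over those 3 groups. Aox1, a second aldehyde oxidase, also rose (1.39 ± 0.31, limma adjusted p = 0.00531).

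Tmem267, a membrane protein, had 574 to 982 in Cd wild type against 42.5 to 106 in CBA liver (2.92 ± 0.34, limma adjusted p = 2.84e-07). Lp wild type and ct mice were at 50.5 to 85.5, like CBA, and B6 mice at 355 to 1245. Ccl27a, a chemokine, had 635 to 740 against 53.4 to 140 (2.65 ± 0.25, limma adjusted p = 4.59e-09). Ppp1r3e, a glycogen-targeting subunit of protein phosphatase 1, had 213 to 310 against 9.69 to 46.3 (2.69 ± 0.36, limma adjusted p = 3.85e-06), with a second probe set at 0.24.

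**Figure D4:**
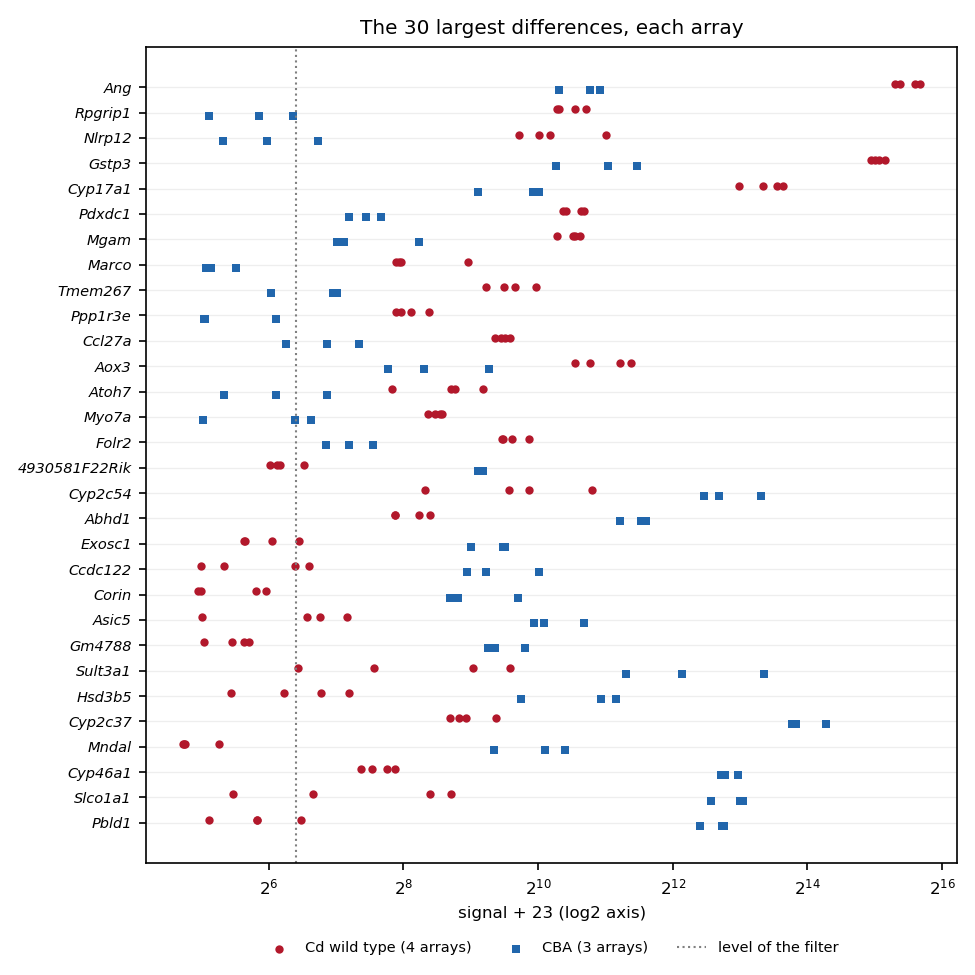
Signal + 23 on a log2 axis for the 15 largest increases and 15 largest decreases, with each Cd wild type array as a red circle (4 per gene) and each CBA array as a blue square (3 per gene). The dotted line marks the level of the filter, and the genes were chosen among those whose groups did not overlap.

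Whether a gene's level was particular to the Cd line, to CBA or to neither was read from all 35 arrays, CBA replicate 4 left out. The 8 arrays of the Cd line, wild type and heterozygote, lay below all 27 others in 38 of the 568 called genes and above them in 15, beside 46 and 26 of all 13190. The 3 CBA arrays lay below the other 32 in 31 called genes and above them in 19, beside 38 and 30 of all. CBA and ct arrays together lay below the other 28 in 18 and above them in 13, beside 20 and 15 of all. These are descriptions, since the call used the same Cd wild type and CBA arrays. Of the 30 largest differences, 7 had the Cd line below all others (Pbld1, Mndal, Cyp2c37, Gm4788, Ccdc122, Exosc1 and 4930581F22Rik) and 2 had it above (Gstp3 and Atoh7).

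**Figure D5:**
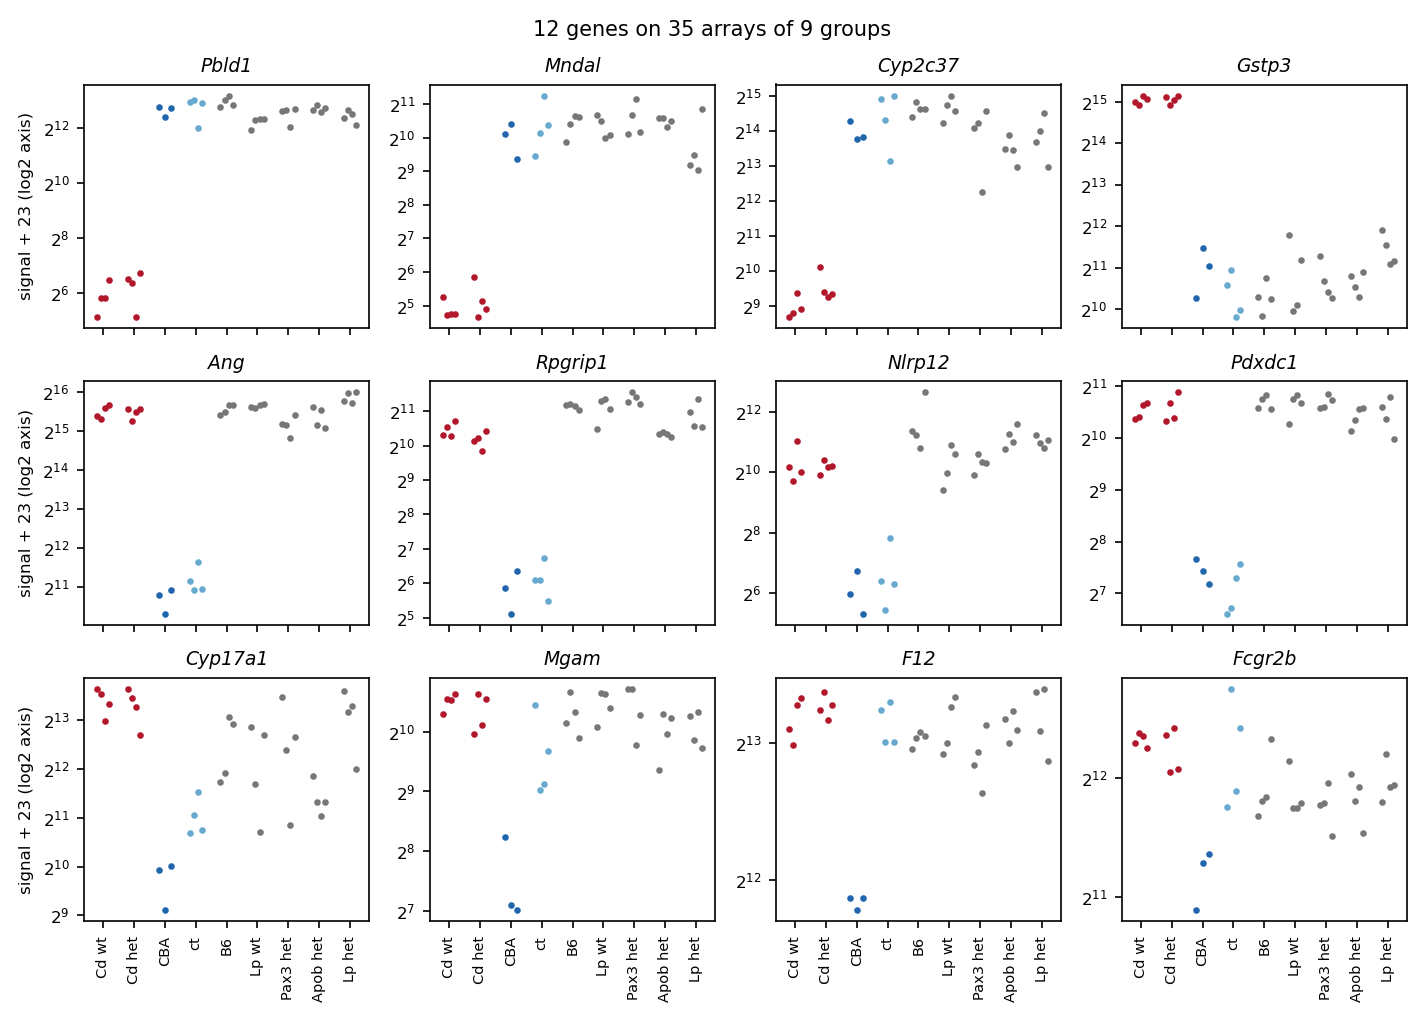
Signal + 23 on a log2 axis for 12 genes on 35 arrays, 1 point per array, with the Cd line in red, CBA in dark blue, ct in light blue and the other groups in grey. Pbld1, Mndal, Cyp2c37 and Gstp3 set the Cd line apart, Ang, Rpgrip1, Nlrp12 and Pdxdc1 set CBA and ct apart, and Cyp17a1, Mgam, F12 and Fcgr2b have CBA lowest.

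Cd heterozygotes differed from Cd wild type mice in 0 of the 13190 genes at a limma adjusted p below 0.05 (0%), and in 373 before adjustment. That comparison shares the 4 Cd wild type arrays with the present one. The 30 genes with the largest differences to CBA had differences from -1.44 to 0.58 between heterozygote and wild type, and 0 of them had an unadjusted limma p below 0.05. Among the other named genes Prmt1 (-0.69 ± 0.22) and Ifi27 (0.47 ± 0.23) were below 0.05 before adjustment, and neither passed after it (limma adjusted p = 0.9998 for both). Lrp6 itself, the Wnt co-receptor mutated in the Cd line, had 1114, 959, 888 and 763 in Cd wild type and 1409, 802 and 846 in CBA liver. The groups overlapped and the difference was -0.09 ± 0.30 (limma adjusted p = 0.933), with -1.05 in a second probe set. Grhl3, the gene affected in ct mice, had 42.6 to 64.7 and 41.2 to 65.3, below the filter, and was not tested.

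Markers of Kupffer cells and macrophages were mostly higher in value in Cd wild type liver. Of 16 tested, 2 rose and 0 fell, beside 2.21% and 2.1% of all genes tested. Positive differences numbered 13 (48.8% of all genes), and the median was 0.44. Folr2, the folate receptor of macrophages, had 761, 680, 908 and 691 in Cd wild type and 92.0, 124 and 165 in CBA liver (2.40 ± 0.30, limma adjusted p = 1.25e-06). Marco, a scavenger receptor, had 227, 215, 477 and 220 against 12.4, 22.5 and 10.4 (2.95 ± 0.77, limma adjusted p = 0.0199), and a second probe set gave 1.87. Folr2 kept its call without any of the 7 arrays. Marco lost its call without Cd wild type replicate 3 (2.69, limma adjusted p = 0.0678) and without CBA replicate 1 (2.90, limma adjusted p = 0.074), 2 (3.08, limma adjusted p = 0.0534) or 3 (2.86, limma adjusted p = 0.0832).

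The defining Kupffer cell markers Clec4f (0.48 ± 0.29) and Vsig4 (0.48 ± 0.28) did not pass, nor did Cd5l (1.37 ± 0.41, limma adjusted p = 0.0516). The summed signal of the list was 42232 to 50147 in Cd wild type and 30620 to 35730 in CBA liver, without overlap. Such sums weigh bright genes most, and 20.9% of all single genes tested also had no overlap. In bulk liver, fewer cells of a type and less RNA per cell cannot be told apart. Among 17 endothelial markers 2 rose and 0 fell, beside 2.21% and 2.1% of all genes, with summed signals of 24397 to 26809 against 19451 to 22512.

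The endothelial genes that rose were Fcgr2b, the inhibitory IgG receptor of sinusoids (4850 to 5277 against 1871 to 2598, 1.14 ± 0.19, limma adjusted p = 9.28e-05), and Gpr182, a chemokine-scavenging receptor (1504 to 1671 against 742 to 897, 0.95 ± 0.17, limma adjusted p = 3.15e-04). The 3 other probe sets of Fcgr2b gave 0.83 to 1.00. The sinusoidal markers Lyve1 (-1.03 ± 0.34, limma adjusted p = 0.0845) and Dnase1l3 (-0.84 ± 0.26, limma adjusted p = 0.0544) had negative values and did not pass. Of 20 stellate cell and collagen genes 1 rose, Ecm1 (0.55 ± 0.15, limma adjusted p = 0.0283), and 0 fell. Over all genes tested, 2.21% rose and 2.1% fell. Summed signals of this list were 32786 to 35975 against 24271 to 31561, also without overlap. None of 15 lymphocyte and granulocyte markers, 6 cholangiocyte markers and 9 hepatocyte markers was called by limma, and 2, 1 and 0 of them had p below 0.05 before adjustment. The hepatocyte markers differed by -0.17 to 0.16. Summed signals of the lymphocyte and granulocyte markers were 2542 to 3291 against 1741 to 2450, without overlap. Those of the hepatocyte markers overlapped, at 333021 to 432008 against 357125 to 367023, as did those of the cholangiocyte markers (761 to 819 against 785 to 947). Sums of 7 tested pancreas and gut markers went the other way, at 10551 to 12663 against 14700 to 16518.

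Of 37 tested genes induced by interferon 1 rose and 3 fell, beside 2.21% and 2.1% of all genes tested. Positive differences numbered 9 (48.8% of all genes), and the median was -0.25. Besides Mndal, Ifi27 fell (1256 to 2453 against 4099 to 6045, -1.54 ± 0.25, limma adjusted p = 8.88e-05), and so did Usp18, the protease that removes ISG15 (371 to 786 against 1056 to 1198, -1.17 ± 0.26, limma adjusted p = 0.00492). Gbp7, a guanylate-binding protein, rose (686 to 1106 against 354 to 496, 1.02 ± 0.26, limma adjusted p = 0.0189), with 0.20 in a second probe set. The call of Gbp7 was lost without Cd wild type replicate 3 (0.90, limma adjusted p = 0.0732), CBA replicate 2 (1.01, limma adjusted p = 0.0725) or CBA replicate 3 (0.90, limma adjusted p = 0.121). Of 15 MHC class I genes and their partners, H2-Bl fell (-1.35 ± 0.36, limma adjusted p = 0.0246) and none rose, and of 10 MHC class II genes none was called by limma, with 1 at p below 0.05 before adjustment.

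Lipid and bile acid genes are given by list, beside 2.21% of all genes tested that rose and 2.1% that fell. None of 22 cholesterol synthesis genes was called by limma, and 3 had p below 0.05 before adjustment. In this list 19 were negative and the median was -0.43, beside 48.8% positive and a median of -0.01 over all genes. Sqle, squalene epoxidase, had 730.3 ± 536 (SD, n = 4) in Cd wild type and 2321 ± 912 (SD, n = 3) in CBA liver (-1.88 ± 0.66, limma adjusted p = 0.11). Among 30 fatty acid and triglyceride synthesis genes 1 fell (Gpat3) and 0 rose, 7 were positive and the median was -0.24. Of 35 bile acid genes 3 fell and 0 rose, and of all genes tested 2.1% fell and 2.21% rose. Those that fell were Slco1a1, Cyp7b1 and the exporter Abcg2 (1124 to 1299 against 1678 to 2391, -0.77 ± 0.19, limma adjusted p = 0.0111). Abcg2 lost its call without CBA replicate 2 (-0.65, limma adjusted p = 0.1) or 3 (-0.74, limma adjusted p = 0.0588).

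Among 53 targets of PPAR alpha and genes of fatty acid oxidation 2 rose and 2 fell, beside 2.21% and 2.1% of all genes. Vnn1, the pantetheinase vanin, had 2215 to 3749 against 8596 to 11896 (-1.72 ± 0.30, limma adjusted p = 2.40e-04), and a second probe set gave -1.76. Bdh1, which interconverts ketone bodies, rose in its brightest probe set (15162 to 16494 against 7141 to 8450, 1.02 ± 0.27, limma adjusted p = 0.0216), and its other probe set gave -0.38. Bdh1 lost its call without any one of the CBA arrays (0.95 to 1.07, limma adjusted p of 0.0539 to 0.111). The list also held Cyp4a14 and Acaa1a, a peroxisomal thiolase (-0.70 ± 0.21, limma adjusted p = 0.0468), whose call was lost without each of the 7 arrays in turn (limma adjusted p of 0.051 to 0.263).

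Of 34 lipoprotein and lipase genes 2 rose and 0 fell, beside 2.21% and 2.1% of all genes tested. Angptl8, an inhibitor of lipoprotein lipase, had 1429 to 1878 against 365 to 677 (1.62 ± 0.34, limma adjusted p = 0.00221). Vldlr, the VLDL receptor, had 789 to 1289 against 266 to 521 (1.36 ± 0.40, limma adjusted p = 0.0418), and 4 more probe sets gave 0.33 to 1.04. The call of Vldlr was lost without Cd wild type replicate 1 (1.27, limma adjusted p = 0.112), 2 (1.24, limma adjusted p = 0.118) or 4 (1.47, limma adjusted p = 0.0503), and without CBA replicate 2 (1.14, limma adjusted p = 0.232) or 3 (1.36, limma adjusted p = 0.127).

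In folate, methionine and methyl metabolism, the pathways tied to neural tube closure, 2 of 45 tested genes rose and 2 fell. Over all genes tested, 2.21% rose and 2.1% fell. Besides Folr2, Prmt1, the main arginine methyltransferase, rose, with 585, 553, 498 and 646 in Cd wild type against 195, 203 and 257 in CBA liver (1.30 ± 0.23, limma adjusted p = 4.18e-04). Cth, which makes cysteine from cystathionine, fell, with 7666, 5408, 5736 and 4102 against 13753, 12504 and 13224 (-1.23 ± 0.24, limma adjusted p = 0.00119). Both genes kept their call without any of the 7 arrays. Prmt1 had 508, 459, 221 and 264 in Cd heterozygotes, whose lower values reached the CBA range. Gart, a trifunctional enzyme of purine synthesis that uses formyl-folate, fell (-0.63 ± 0.17, limma adjusted p = 0.0246), and its 3 other probe sets gave -0.51, -0.71 and -0.96. Gart lost its call without Cd wild type replicate 1 (-0.60, limma adjusted p = 0.0682), 2 (-0.54, limma adjusted p = 0.0952) or 3 (-0.60, limma adjusted p = 0.0638), and without CBA replicate 1 (-0.57, limma adjusted p = 0.119) or 3 (-0.60, limma adjusted p = 0.105).

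Of 36 Wnt pathway and pericentral genes 2 rose and 2 fell, beside 2.21% and 2.1% of all genes tested. Fzd4, a Wnt receptor, had 583 to 914 against 1353 to 1684 (-1.05 ± 0.23, limma adjusted p = 0.00337), with 0.26 and -0.60 in other probe sets. Gsk3b, the kinase that marks beta-catenin for destruction, fell by 1.68 on the log2 scale (200 to 290 against 553 to 1367, limma adjusted p = 0.00112). The 5 other probe sets of Gsk3b gave -0.39 to 0.54, so only this probe set had a change of that size. Znrf3, a ubiquitin ligase for Wnt receptors, had 563 to 923 against 334 to 470 (0.83 ± 0.24, limma adjusted p = 0.0387), with -0.10 in a second probe set. Znrf3 lost its call without Cd wild type replicate 1, 2 or 3 or CBA replicate 2 or 3 (0.71 to 0.84, limma adjusted p of 0.0723 to 0.198).

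Slc1a2, a glutamate carrier of pericentral hepatocytes, had 597 to 836 against 40.6 to 522 (1.78 ± 0.52, limma adjusted p = 0.0451). Its other probe sets gave -1.59 and 1.34. Slc1a2 lost its call without any array but CBA replicate 1, and the difference was 0.94 (limma adjusted p = 0.471) without CBA replicate 2. Without Cd wild type replicates 1 to 4 and CBA replicate 3 its difference was 1.68 to 1.90, with a limma adjusted p of 0.0715 to 0.113. Of 20 neural tube and planar polarity genes 2 rose and 0 fell, beside 2.21% and 2.1% of all genes tested. Those that rose were Celsr1, a planar polarity cadherin (214 to 368 against 60.6 to 83.4, 1.57 ± 0.37, limma adjusted p = 0.00834), and Prickle1 (0.66 ± 0.18, limma adjusted p = 0.0289). A second probe set of Prickle1 gave 0.09. Celsr1 lost its call without CBA replicate 2 (1.47, limma adjusted p = 0.0539), and Prickle1 without Cd wild type replicate 1, 2 or 4 or CBA replicate 2 or 3 (0.56 to 0.67, limma adjusted p of 0.0521 to 0.185).

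Of 40 tested urea cycle and amino acid genes 1 rose and 1 fell, beside 2.21% and 2.1% of all genes tested. Bcat2, the mitochondrial branched-chain aminotransferase, had 104, 137, 130 and 141 in Cd wild type against 665, 608 and 642 in CBA liver (-2.14 ± 0.18, limma adjusted p = 2.56e-10). B6 and ct mice lay nearer the Cd line, at 129 to 266, and Lp wild type mice between, at 389 to 509. Csad, which makes hypotaurine for taurine, rose (825 to 2886 against 273 to 414, 1.82 ± 0.51, limma adjusted p = 0.0333). Csad lost its call without Cd wild type replicate 2 (1.90, limma adjusted p = 0.0531) or 4 (1.44, limma adjusted p = 0.152) and without CBA replicate 1, 2 or 3 (1.65 to 1.94, limma adjusted p of 0.0761 to 0.161).

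Of 42 glucose and glycogen genes 1 rose and 2 fell, beside 2.21% and 2.1% of all genes tested. Pgam1, a glycolytic mutase, had 8132, 8123, 7607 and 8205 against 3645, 4555 and 5087 (0.87 ± 0.13, limma adjusted p = 2.55e-05). Gyg, which primes glycogen, had 195 to 370 against 728 to 936 (-1.43 ± 0.27, limma adjusted p = 8.46e-04), and a second probe set gave -1.13. Ppp1r3g, a glycogen-targeting phosphatase subunit, had 210 to 355 against 940 to 1615 (-2.09 ± 0.53, limma adjusted p = 0.0157). Its call was lost without CBA replicate 1 (-1.93, limma adjusted p = 0.0853) or 3 (-2.03, limma adjusted p = 0.0713).

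F12, coagulation factor XII, had 8773, 8101, 9894 and 10252 in Cd wild type against 3710, 3482 and 3711 in CBA liver. CBA was the low group (1.34 ± 0.13, limma adjusted p = 1.22e-08), since Cd heterozygotes, B6, Lp wild type and ct mice ran from 7738 to 10609. C8b, a component of the complement attack complex, fell (-1.18 ± 0.33, limma adjusted p = 0.0339), a call lost without Cd wild type replicate 1 or 2 or CBA replicate 1 or 2 (-0.92 to -1.19, limma adjusted p of 0.0665 to 0.148). F12 and C8b were the called members of 38 complement and coagulation genes, 1 higher and 1 lower. Over all genes tested, 2.21% were higher and 2.1% lower.

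Of 29 iron and heme genes 1 rose and 1 fell, beside 2.21% and 2.1% of all genes tested. Alas1, the first enzyme of heme synthesis, had 3073, 4801, 3783 and 4834 against 16629, 9010 and 12949 (-1.62 ± 0.43, limma adjusted p = 0.0246), and a second probe set gave -3.85. Alas1 lost its call without Cd wild type replicate 1 (-1.48, limma adjusted p = 0.0787) or 3 (-1.58, limma adjusted p = 0.0563) and without CBA replicate 1 (-1.41, limma adjusted p = 0.135) or 3 (-1.59, limma adjusted p = 0.0904). Hamp, the iron hormone hepcidin, was called (2.00 ± 0.59, limma adjusted p = 0.0454), but its groups overlapped: 48782, 46044, 51806 and 57319 against 1145, 47104 and 37156. The difference of Hamp rested on CBA replicate 1 and was 0.28 (limma adjusted p = 0.587) without it. Leaving out a Cd wild type array also ended the call of Hamp, at 1.94 to 2.05 (limma adjusted p of 0.0757 to 0.1).

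Among 64 oxidative phosphorylation genes 1 rose and 1 fell, beside 2.21% and 2.1% of all genes tested. Ndufa10, a subunit of complex I, had 17269 to 20313 against 11942 to 12746 (0.63 ± 0.13, limma adjusted p = 0.00177), with 0.52 in a second probe set. Ndufv1, also of complex I, had 4301 to 5734 against 10387 to 12064 (-1.14 ± 0.17, limma adjusted p = 1.46e-05), with -1.75 and -0.11 in its other probe sets. Of 34 glutathione transferase and Nrf2 target genes, Aox3 and Aox1 rose and Gstm4 fell (944 to 1678 against 2322 to 4608, -1.56 ± 0.30, limma adjusted p = 8.12e-04). Ugt3a1 rose (2520 to 2923 against 1231 to 1500, 1.00 ± 0.29, limma adjusted p = 0.044) and lost its call without each of the 7 arrays in turn (limma adjusted p of 0.0703 to 0.17).

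A further run of neighbouring called genes was Clns1a, Aqp11 and Myo7a, all higher in Cd wild type. Aqp11, an aquaporin of internal membranes, had 3052, 2741, 2386 and 2036 in Cd wild type against 600, 686 and 711 in CBA liver (1.89 ± 0.17, limma adjusted p = 6.62e-10), and other probe sets gave 0.76 and 0.33. Clns1a, a chloride channel regulator and splicing assembly factor, had 7356 to 8831 against 3105 to 4945 (0.97 ± 0.16, limma adjusted p = 1.91e-04), with 0.41 to 0.55 in 3 more probe sets. Over the whole order of tested genes, 102 of the 568 called genes (18.0%) had a called gene next to them, as had 7.9% of the genes not called. In 62 (10.9%) that neighbour was called in the same direction.

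Probe sets of a gene did not always share a direction. Another tested probe set existed for 285 called genes. All of them had the sign of the brightest probe set in 170 of these genes, and at least 1 had the opposite sign with a limma p below 0.05 in 30. Over all these further probe sets 374 of 536 (69.8%) had the same sign, against 59.7% of the 9721 of all tested genes.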

How the data were processed

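RNA of each liver was hybridised to 1 array. The authors deposited linear MAS5 signal intensity, per the submitters' processing notes; the version is not given in the sources used here. Each array has a trimmed mean of 500 (2% left out at each end), as computed from the deposited signals, and MAS5 signal is noisy near background. Of 45101 probe sets, 64 were controls, 34945 had 1 gene symbol in the platform table, 932 several and 9160 were unnamed here. Entrez IDs of 34741 were found in the RefSeq table of GRCm38.p6, which gave current symbols, gene order and the printed sequences (aligned with Biopython 1.88).

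Values were log2(signal + 23). Probe sets passed a filter at a mean log2 of 6.40 over 35 arrays (the 40th percentile, a signal of 61.6), and the brightest stood for its gene, which left 13190 of 18193 symbols. The 35 arrays entered a linear model of group means in limma 3.58.1 in R 4.3.3 (26 residual degrees of freedom, variance trend), two-sided, with Benjamini-Hochberg adjustment over all genes tested. Differences are on this log2 scale, which understates the change of dim genes. The p-values measure the spread between mice, each a biological replicate by its label. Genes named were the 15 largest increases and decreases without overlap and with a higher mean of at least 200, up to 5 called members of each list with at least 2, Lrp6, Grhl3 and runs of at least 3 neighbours. The comparison, its members and the gene lists were chosen with earlier results of these data known. The procedure was tested on simulated data, and other scalings, offsets, filters, models and sets of arrays were tried. Plots were made in Python 3.11.15 (matplotlib 3.10.9).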

Additional observations from a re-analysis of the deposited data

Results flagged for a closer look

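In 3 of the 75 named genes the Cd wild type group held an array far from the other 3, measured as its gap to the nearest value over the range of the group. Chance gives such a gap in about 1 of 20 groups. Marco had 477 in Cd wild type replicate 3 and 215 to 227 in the others. Mndal had 15.2 in replicate 1 and 3.52 to 3.94 in the others, all below the level of the filter. Pgam1 had 7607 in replicate 3 and 8123 to 8205 in the others. In all 3 genes the Cd wild type and CBA values did not overlap, which the choice of the largest differences required of Marco and Mndal.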

How the results depend on the processing

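Among the 73 named genes that were called, 44 kept the call and all kept their direction wherever they were tested under 22 alternatives. The count of called genes (568, of which 291 higher and 277 lower) was 1727 (923 and 804) with array quality weights, 1076 (579 and 497) in a fit to the 7 arrays alone, 945 (492 and 453) in a fit to the wild type arrays, and 1051 (517 and 534) with every probe set as a feature. Median centring gave 342 higher and 162 lower. With ct replicate 3 left out besides CBA replicate 4, 694 genes were called (362 higher and 332 lower), including all 568. Leaving out each array in turn gave 358 to 456 calls, 180 to 227 higher and 175 to 236 lower. The smallest counts came without CBA replicate 2 (358) and without CBA replicate 3 (358), and the counts of genes called lower were 175, 175 and 178 without CBA replicates 1, 2 and 3. The replicate block gave 505 calls, 491 of them among the 568. Replicate numbers did not pair the arrays: same-numbered arrays had deviations that correlated at -0.02, 0.06 and 0.0016, and 1 of 3 CBA arrays correlated best with its own number. Lrp6, not called, changed sign with median centring (0.0038), array quality weights (0.0404) and without CBA replicate 1 (0.1597), and ran from -0.2384 (without CBA replicate 2) to 0.1597 over the fits that left out 1 array. With CBA replicate 4 kept, 668 genes were called, 400 of them among the 568, and Aox1, Cyp2c39, Fzd4, Gstm4, Ifi27 and Ppp1r3g were among those no longer called (1.02, 0.80, -0.74, -0.75, -0.74 and -1.56). The cause was not tested.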
